A study of Homo sapiens with 9 samples.

Results

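NFE2L2, the gene of the transcription factor NRF2, and 8 genes that NRF2 is known to drive were followed by RNA-seq in MDA-MB-231 cells. The genes were taken by name. They and the lists of further genes below were chosen with earlier results of these data known. Their counts beside the shares over all genes are therefore a description and not a test. NQO1 reduces quinones, GCLM and GCLC are the subunits of the enzyme that starts glutathione synthesis, TXNRD1 and SRXN1 keep thioredoxin and the peroxiredoxins in use, and PGD, TALDO1 and ME1 belong to routes that supply NADPH. All 9 names occurred among the 27615 genes listed for any library. MDA-MB-231 is a human triple-negative breast cancer cell line with a mesenchymal character. The cells received the vehicle DMSO, rimonabant, an antagonist of cannabinoid receptor 1, or TXX-1-10, a compound derived from rimonabant, and each treatment had 3 libraries. For the sequenced cells, neither dose nor treatment time is given in the sources used here. Nothing in the labels says whether the 3 libraries of a treatment came from separate cultures, so the p-values measure the spread between these libraries, which may be technical.

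NRF2 is held at a low level by KEAP1, an adaptor that hands it to a ubiquitin ligase with CUL3 and RBX1. When reactive compounds modify KEAP1, NRF2 escapes, pairs with a small MAF protein (MAFF, MAFG or MAFK) and binds antioxidant response elements near its target genes, from which BACH1 keeps it away. Because this control acts on the protein, the mRNA of NFE2L2 is not a measure of NRF2 activity. The targets make and recycle glutathione and thioredoxin, and both systems draw their electrons from NADPH.

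Each deposited list gave, per gene, a read count and an FPKM (fragments per kilobase of gene, scaled to the size of the library). The totals that the FPKM values rest on lay between 17078370 and 19277808 reads, and which reads they hold is not stated. The list of rimonabant replicate 1 ended after 4237 genes and did not reach GCLC, SRXN1 or ME1, which therefore have 2 rimonabant values each and were tested across the other 8 libraries. A gene beyond the end of a list is not a zero. Relative to the other replicates of their treatment, rimonabant replicate 1 and TXX-1-10 replicate 3 had fewer reads in long genes and more in short genes, with a rank correlation across genes of -0.693 and -0.692, and values without these libraries are given beside results that they move. Counts of mitochondrially encoded genes came to 3.06% to 3.51% of the total behind the FPKM values under TXX-1-10. Under vehicle they came to 6.26% to 6.52% of it and under rimonabant to 6.06% to 6.86%. The part of this share in the values below was not tested. The vimentin gene VIM lay between 224 and 329 FPKM and CD44 between 27.4 and 48.2 FPKM in all 9 libraries, while the estrogen receptor gene ESR1 stayed at or below 0.0314 FPKM and the leukocyte gene PTPRC at or below 0.0639 FPKM in the 4 libraries whose lists reached them. The epithelial gene EPCAM was listed at 4.47 to 5.37 FPKM in 7 libraries.

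The start regions of the 9 genes were searched for the core of the antioxidant response element, TGACNNNGC, on both strands of windows from 250 bases before to 50 bases after each RefSeq start (GRCh38.p14). It was found in 5 of 11 windows and for 4 of 9 genes (GCLM, TXNRD1, PGD and ME1), against 4687 of all 35116 windows, or 13.3%. PGD has a match but did not pass as higher under TXX-1-10 in the fit reported below, and GCLC, which rose most there, has none. The sequences with a match are shown with the match in capitals. Each is read 5′ to 3′ on the gene's own strand, so that a match on the opposite strand appears as its reverse complement.
GCLM, chr1:93909446-93909474, minus strand, match 34 bases before the start: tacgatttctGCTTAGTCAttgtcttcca
TXNRD1, chr12:104215620-104215748, plus strand, match 99 bases before the first start: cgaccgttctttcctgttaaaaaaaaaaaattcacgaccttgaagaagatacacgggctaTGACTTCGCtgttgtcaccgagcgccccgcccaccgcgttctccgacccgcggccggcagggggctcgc
TXNRD1, chr12:104286920-104286948, plus strand, match 102 bases before the second start: gtggatttctGCTTTGTCAttctgactct
PGD, chr1:10398814-10398931, plus strand, match 201 bases before the start: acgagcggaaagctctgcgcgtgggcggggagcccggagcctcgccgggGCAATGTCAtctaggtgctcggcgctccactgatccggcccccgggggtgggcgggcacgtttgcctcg
ME1, chr6:83431120-83431248, minus strand, match 137 bases before the start: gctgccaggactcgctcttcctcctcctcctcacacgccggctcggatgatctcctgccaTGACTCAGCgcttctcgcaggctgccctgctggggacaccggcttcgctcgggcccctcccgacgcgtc
The printed match of TXNRD1 at its first start and that of ME1 read along the gene, and the other printed matches lie on the opposite strand. Each of these 2 windows also held a second match on the opposite strand, TGACGGAGC in TXNRD1 and TGACGGTGC in ME1, which is not shown in its surroundings. The opening letters of the ME1 match, TGACTCA, are also the AP-1 motif. The windows of NFE2L2, NQO1, GCLC, SRXN1 and TALDO1 did not hold these letters, which says nothing about elements outside the windows. A match is a description of the sequence and not evidence of binding.

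Under TXX-1-10, 7 of the 9 genes rose against vehicle, none fell, and PGD and TALDO1 did not pass the test. GCLC rose most, by 1.41 on the log2 scale, followed by TXNRD1 at 1.08 and SRXN1 at 1.02, and these were the 3 that changed at least 2-fold. The test was edgeR's quasi-likelihood F test with Benjamini-Hochberg adjustment over all tested genes, and a gene passed at an adjusted p under 0.05. Of all 4236 genes tested across 9 libraries 30.5% passed as higher, as did 34.7% of the 9369 genes tested across 8, and 4.2% and 5.28% did so with a change of at least 2-fold. The shares that passed as lower were 43.8% and 40.6%. The median log2 fold change of the 9 genes was 0.72, beside -0.09 and -0.04 over all genes of these fits. With TMM, another scaling of the libraries, the median over all genes across 9 libraries was 0.00, and 8 of the 9 genes passed. In bulk RNA, less RNA per cell and fewer cells of a kind cannot be told apart.

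Under rimonabant, 8 of the 9 genes rose against vehicle, none fell, and TALDO1 did not pass. The fitted changes were smaller than under TXX-1-10 for all but PGD and TALDO1, with a median of 0.54 beside -0.02 and 0.00 over all genes of the fits across 9 and 8 libraries. Only TXNRD1 changed at least 2-fold, at 1.01 on the log2 scale. Over all genes 23.7% passed as higher in both fits, and 0.519% and 0.736% did so with a change of at least 2-fold. The shares that passed as lower were 25.2% and 22.8%. The 2 comparisons share the vehicle libraries, so their values are given side by side and each rests on its own test.

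**Figure D1:**
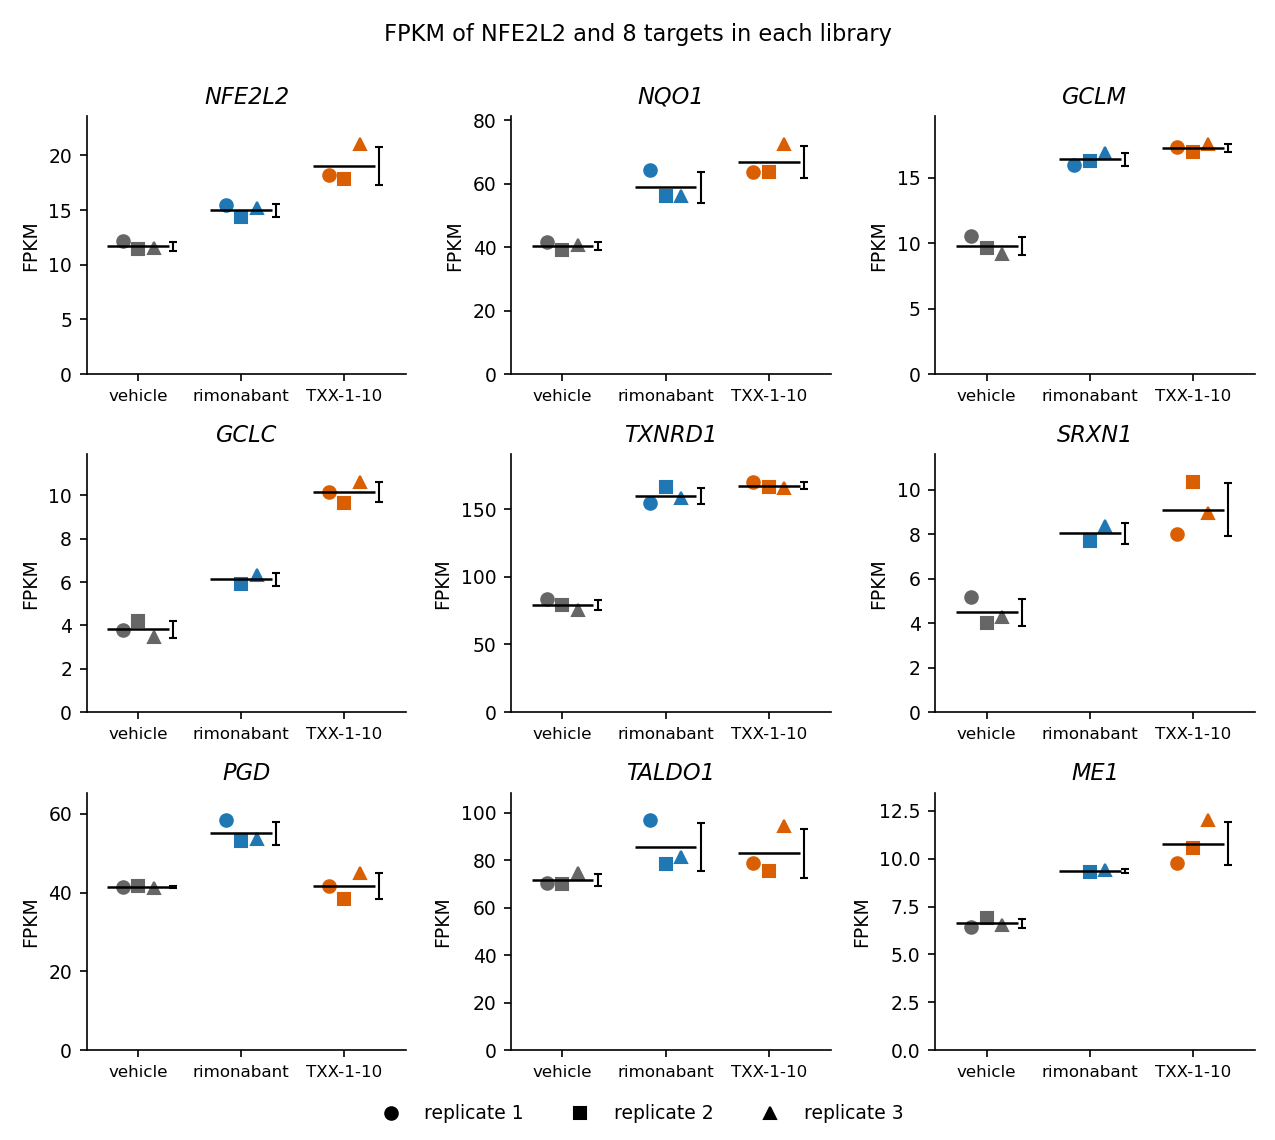
FPKM (vertical axes, from 0) of NFE2L2 and 8 target genes in each library of vehicle, rimonabant and TXX-1-10 cells. Symbols are libraries, horizontal lines are means, and bars are SD (n = 3, or n = 2 for GCLC, SRXN1 and ME1 under rimonabant). TXX-1-10 values of GCLC, between 9.68 and 10.6 FPKM, lay above all others of that gene, whereas those of PGD, between 38.4 and 45.0 FPKM, spanned the vehicle values.

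NFE2L2 (ENSG00000116044, GRCh38 chromosome 2, 177227595 to 177392697, minus strand) was at 12.1, 11.4 and 11.5 FPKM in the vehicle libraries, 15.5, 14.3 and 15.2 FPKM under rimonabant, and 18.2, 17.8 and 21.1 FPKM under TXX-1-10. The 3 groups did not overlap, with vehicle lowest and TXX-1-10 highest. The gene rose under TXX-1-10 by 0.70 ± 0.07 on the log2 scale (SE, edgeR adjusted p = 6.31e-06) and under rimonabant by 0.36 ± 0.07 (adjusted p = 0.00196). The highest TXX-1-10 value came from replicate 3, and without both libraries that showed the length trend the changes were 0.63 and 0.34, each still passing. Annotated exons of 3 other genes overlap those of NFE2L2, among them AC019080.1 on the same strand with 1054 shared bases and 33 to 62 counts, beside 1176 to 2317 counts for NFE2L2.

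Most genes that act on or with NRF2 rose as well. In a list of 13 regulators and partners, 10 rose, 2 fell and 1 did not pass under TXX-1-10, with a median log2 fold change of 0.73, and 9 rose and 4 did not pass under rimonabant, with a median of 0.39. Without both length-trend libraries 11 rose under rimonabant, and the shares over all genes that follow are not from that setting. Across 9 and 8 libraries, 30.5% and 34.7% of all genes passed as higher under TXX-1-10, and 43.8% and 40.6% as lower. Under rimonabant 23.7% of all genes passed as higher in both fits, and 25.2% and 22.8% as lower. SQSTM1, the autophagy receptor p62 that can draw KEAP1 away from NRF2, was at 47.9 ± 0.799 FPKM under vehicle, 83.0 ± 2.6 under rimonabant and 218 ± 6.08 under TXX-1-10 (SD, n = 3). It rose by 2.18 on the log2 scale under TXX-1-10 and by 0.79 under rimonabant (edgeR adjusted p = 3.87e-10 and 2.55e-06). The MAF partners MAFG and MAFF rose by 1.72 and 1.28 under TXX-1-10 and by 0.91 and 0.89 under rimonabant. KEAP1 itself was at 29.5 ± 1.68, 34.2 ± 3.41 and 31.1 ± 2.67 FPKM under vehicle, rimonabant and TXX-1-10, and neither change passed (0.08 with adjusted p = 0.413 under TXX-1-10 and 0.21 with adjusted p = 0.0609 under rimonabant). KEAP1 passed as higher with DESeq2 (0.18 and 0.23, adjusted p = 0.0334 and 0.0105) and with an offset for gene length (0.19 and 0.20, adjusted p = 0.00871 and 0.00842), and under rimonabant also with TMM (0.22, adjusted p = 0.0353) and without both length-trend libraries (0.13, adjusted p = 0.0242), among other settings. The genes that fell under TXX-1-10 were the ligase partners CUL3, by 0.29, and RBX1, by 0.58 on the log2 scale. BACH1, which competes with NRF2 for its elements, rose by 1.10 and 0.58. CUL3, RBX1 and BACH1 were named after their values were seen.

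NQO1 (ENSG00000181019, chromosome 16, 69706996 to 69726951, minus strand), the quinone reductase often used as a readout of NRF2, was at 41.7, 39.1 and 40.6 FPKM under vehicle, 64.5, 56.0 and 56.1 FPKM under rimonabant, and 63.9, 63.8 and 72.6 FPKM under TXX-1-10. All 6 treated libraries lay above the vehicle range, and the compounds overlapped through rimonabant replicate 1. NQO1 rose by 0.72 ± 0.07 under TXX-1-10 and by 0.54 ± 0.07 under rimonabant on the log2 scale (edgeR adjusted p = 6.92e-06 and 0.000213). The highest value in each treated group came from the library with the length trend, and without both of these libraries the changes were 0.66 and 0.47.

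The subunits of glutamate-cysteine ligase responded to different degrees. GCLM (ENSG00000023909, chromosome 1, 93885205 to 93909456, minus strand), the modifier subunit, was at 10.5, 9.61 and 9.20 FPKM under vehicle, 16.0, 16.3 and 16.9 FPKM under rimonabant, and 17.4, 17.0 and 17.6 FPKM under TXX-1-10. It rose by 0.82 ± 0.06 under TXX-1-10 and by 0.75 ± 0.06 under rimonabant (edgeR adjusted p = 4.87e-07 and 8.66e-06), and the treated groups lay side by side without overlapping. GCLC (ENSG00000001084, chromosome 6, 53497341 to 53616970, minus strand), the catalytic subunit, was at 3.80, 4.23 and 3.46 FPKM under vehicle, 5.91 and 6.35 FPKM in rimonabant replicates 2 and 3, and 10.2, 9.68 and 10.6 FPKM under TXX-1-10. These groups did not overlap, with vehicle lowest and TXX-1-10 highest. GCLC rose by 1.41 ± 0.07 under TXX-1-10 and by 0.68 ± 0.08 under rimonabant (edgeR adjusted p = 5.21e-09 and 5.85e-05). The FPKM of GCLC as a ratio to that of GCLM was 0.392 ± 0.0420 (SD, n = 3) under vehicle, 0.369 ± 0.00887 (n = 2) under rimonabant and 0.587 ± 0.0169 (n = 3) under TXX-1-10. The 3 TXX-1-10 ratios, from 0.571 to 0.604, lay above the highest of the other 5, which was 0.440. This ratio was formed after the values were seen and was not tested.

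Elsewhere in glutathione metabolism the directions were mixed under TXX-1-10. Of 27 further genes of glutathione supply and use, 22 could be tested, of which 10 rose, 10 fell and 2 did not pass under TXX-1-10 (median -0.04), and 10 rose, 2 fell and 10 did not pass under rimonabant (median 0.09). Without both length-trend libraries the rimonabant count became 10 higher and 6 lower, a setting whose shares over all genes are not given here. Of all genes across 9 and 8 libraries, 30.5% and 34.7% passed as higher under TXX-1-10, and 43.8% and 40.6% as lower. The rimonabant shares were 23.7% higher in both fits, and 25.2% and 22.8% lower. CHAC1, which breaks glutathione down, rose from 1.65 ± 0.234 FPKM (SD, n = 3) to 7.95 ± 0.547 (n = 2) under rimonabant and 12.6 ± 0.583 (n = 3) under TXX-1-10, by 2.27 and 2.94 on the log2 scale. SLC3A2, the heavy chain of the cystine transporter, rose by 0.91 and 1.96, and the glutaredoxin gene GLRX by 0.80 and 1.61, in the same order. The cystine-exchanging light chain SLC7A11 rose by 1.07 and 1.52, and the glutathione reductase gene GSR by 0.37 and 0.39. GSS, which completes glutathione after GCLC and GCLM, fell by 0.43 under TXX-1-10 and had a change of -0.05 under rimonabant that did not pass (edgeR adjusted p = 0.601). SLC7A11, GSR and GSS were named after their values were seen.

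TXNRD1 (ENSG00000198431, chromosome 12, 104215779 to 104350305, plus strand), the cytosolic thioredoxin reductase, had the highest FPKM of the 9 genes in every library. It was at 83.3, 79.0 and 75.2 FPKM under vehicle, 155, 166 and 158 FPKM under rimonabant, and 170, 167 and 165 FPKM under TXX-1-10. All treated libraries lay far above vehicle, and the ranges of the compounds overlapped at 165 to 166 FPKM. TXNRD1 rose by 1.08 ± 0.06 under TXX-1-10 and by 1.01 ± 0.06 under rimonabant on the log2 scale (edgeR adjusted p = 4.89e-08 and 9.75e-07). The rimonabant change fell just short of 2-fold, at 0.98, when vehicle replicate 3 or rimonabant replicate 2 was left out.

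SRXN1 (ENSG00000271303, chromosome 20, 646615 to 653370, minus strand), the sulfiredoxin that repairs overoxidised peroxiredoxins, was at 5.19, 3.998 and 4.28 FPKM under vehicle, 7.70 and 8.38 FPKM in rimonabant replicates 2 and 3, and 7.998, 10.4 and 8.98 FPKM under TXX-1-10. Treated libraries lay above vehicle, and the compounds overlapped. SRXN1 rose by 1.02 ± 0.12 under TXX-1-10 and by 0.84 ± 0.13 under rimonabant (edgeR adjusted p = 6.44e-06 and 0.000323). It had the fewest reads of the 9 genes, 186 to 514, and its TXX-1-10 change lay under 2-fold, between 0.92 and 0.99, without vehicle replicate 2, vehicle replicate 3 or TXX-1-10 replicate 2. With limma on log2(FPKM + 1) the change was 0.88, and it reached 2-fold in 17 of 21 alternatives. Exons of a further coding gene, AL121758.1, cover 2292 bases of SRXN1 on the same strand, so reads of the 2 genes may not have been separable.

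Other genes of the same systems moved in both directions. Of 20 further genes of thioredoxin, peroxiredoxin and superoxide handling, 18 could be tested, of which 5 rose, 11 fell and 2 did not pass under TXX-1-10 (median -0.29), beside 30.5% higher and 43.8% lower over all genes across 9 libraries, and 3 rose, 4 fell and 11 did not pass under rimonabant (median -0.05). With TMM the TXX-1-10 count was 5 higher and 9 lower. Of the 3138 genes that then passed across 9 libraries 50.0% were higher, rather than 41.1% of 3151. Without both length-trend libraries 8 fell under rimonabant, a setting whose shares over all genes are not given here. Across 8 libraries the shares over all genes under TXX-1-10 were 34.7% higher and 40.6% lower. Under rimonabant they were 23.7% higher in both fits, and 25.2% and 22.8% lower across 9 and 8 libraries. The thioredoxin gene TXN was at 325 ± 24.8 FPKM under vehicle, 338 ± 42.4 under rimonabant and 330.0 ± 45.1 under TXX-1-10 (SD, n = 3), and neither change passed (0.05 and 0.02, edgeR adjusted p = 0.721 and 0.876). PRDX2, PRDX3 and PRDX6, which reduce peroxides, fell under TXX-1-10 by 0.81, 0.88 and 0.74 on the log2 scale. PRDX1 and PRDX4 fell by 0.27 and 0.31, whereas PRDX5 of the same family rose by 0.97. SESN2, a stress-induced sestrin, rose by 3.01 under TXX-1-10 and by 1.93 under rimonabant, and the mitochondrial superoxide dismutase gene SOD2 (ENSG00000112096) by 1.04 and 0.60. TXNIP, which binds and blocks thioredoxin, rose by 1.02 under TXX-1-10 and had a change of 0.12 under rimonabant that did not pass (edgeR adjusted p = 0.0896). TXN and the PRDX genes were named after their values were seen.

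PGD (ENSG00000142657, chromosome 1, 10398592 to 10420144, plus strand), which makes NADPH in the pentose phosphate pathway, was the only 1 of the 9 genes that passed as lower under TXX-1-10 than under rimonabant. It was at 41.5, 41.6 and 41.3 FPKM under vehicle, 58.4, 53.2 and 53.5 FPKM under rimonabant, and 41.7, 38.4 and 45.0 FPKM under TXX-1-10. The rimonabant libraries were all above both other groups, and the TXX-1-10 libraries fell on either side of the narrow vehicle range. PGD rose by 0.41 ± 0.06 on the log2 scale under rimonabant (edgeR adjusted p = 0.000541), and its TXX-1-10 change was 0.01 ± 0.06 (adjusted p = 0.915, 95% interval -0.13 to 0.15). With an offset for the gene length trend the TXX-1-10 change of PGD was 0.14 and passed (adjusted p = 0.00629). Without TXX-1-10 replicate 3, the length-trend library with the highest PGD value of its group, the change was -0.05 and did not pass.

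TALDO1 (ENSG00000177156, chromosome 11, 747329 to 765024, plus strand), the transaldolase that links the pentose phosphate pathway to glycolysis, was at 70.3, 69.9 and 74.4 FPKM under vehicle, 96.8, 78.3 and 81.2 FPKM under rimonabant, and 78.6, 75.5 and 94.5 FPKM under TXX-1-10. Every treated library lay above every vehicle library, and the highest value of each treated group came from the library with the length trend. The changes were 0.21 ± 0.10 under TXX-1-10 (edgeR adjusted p = 0.0726, 95% interval -0.01 to 0.43) and 0.26 ± 0.10 under rimonabant (adjusted p = 0.0528, 95% interval 0.04 to 0.48). Without both length-trend libraries the changes were smaller, 0.11 and 0.16, and passed (adjusted p = 0.0192 and 0.00186).

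ME1 (ENSG00000065833, chromosome 6, 83210389 to 83431071, minus strand), the cytosolic malic enzyme, which forms NADPH from malate, was at 6.44, 6.88 and 6.53 FPKM under vehicle, 9.29 and 9.42 FPKM in rimonabant replicates 2 and 3, and 9.79, 10.6 and 12.0 FPKM under TXX-1-10. The 3 groups did not overlap. ME1 rose by 0.70 ± 0.08 under TXX-1-10 and by 0.50 ± 0.09 under rimonabant on the log2 scale (edgeR adjusted p = 6.74e-06 and 0.000968). The highest TXX-1-10 value came from replicate 3, which showed the length trend. Without that library the TXX-1-10 change was 0.62 and still passed.

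Across 12 further genes of NADPH supply, 5 rose, 6 fell and 1 did not pass under TXX-1-10 (median -0.26), and 2 rose, 3 fell and 7 did not pass under rimonabant (median -0.12). Without both length-trend libraries 6 fell under rimonabant and 7 under TXX-1-10. More of all genes passed in that setting too, 3591 rather than 3151 of 4236 under TXX-1-10. The shares that follow are not from it. Among all genes across 9 and 8 libraries, 30.5% and 34.7% passed as higher under TXX-1-10, and 43.8% and 40.6% as lower. For rimonabant 23.7% passed as higher in both fits, and 25.2% and 22.8% as lower. The isocitrate dehydrogenase genes moved apart under TXX-1-10, where cytosolic IDH1 rose by 0.93 and mitochondrial IDH2 fell by 1.23 on the log2 scale. Under rimonabant IDH1 rose by 0.34 and IDH2 had a change of -0.11 (edgeR adjusted p = 0.294). NNT, the mitochondrial transhydrogenase, fell by 0.95 and 0.72 under TXX-1-10 and rimonabant, and the mitochondrial malic enzyme gene ME3 by 0.66 and 0.88. PGLS, the pentose phosphate pathway enzyme that acts just before PGD, rose by 0.52 under TXX-1-10 and had a change of -0.02 under rimonabant that did not pass (edgeR adjusted p = 0.859). PGLS was named after its values were seen.

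**Figure D2:**
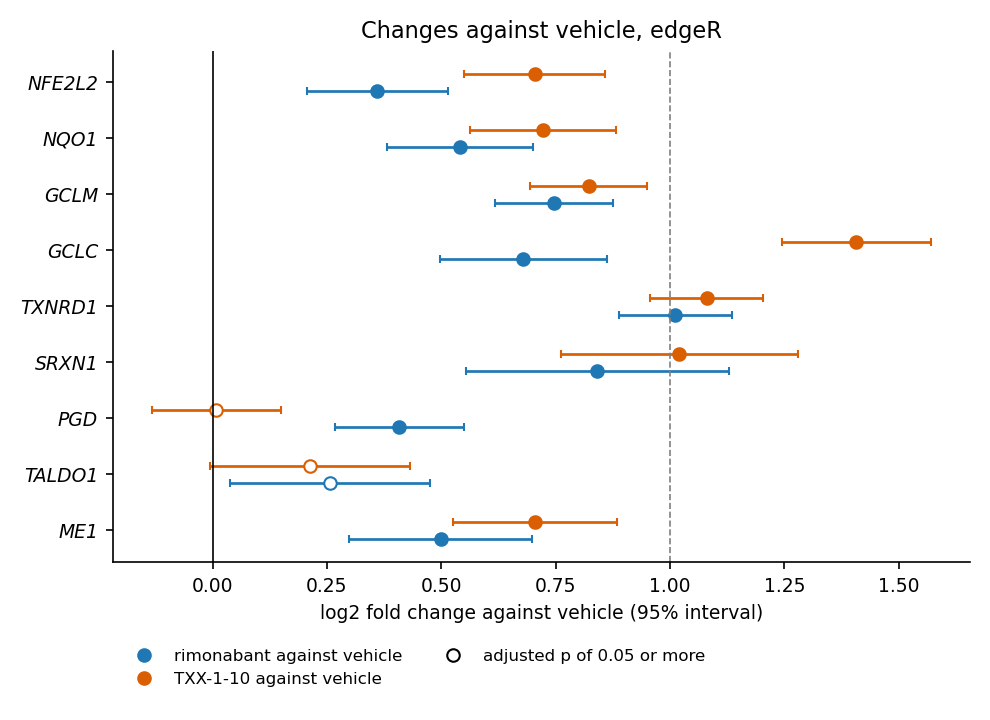
Log2 fold change against vehicle (horizontal axis) with its 95% interval for NFE2L2 and 8 targets under rimonabant and TXX-1-10, from edgeR. Open circles did not pass the test, and the dashed line marks a 2-fold increase. GCLC lay furthest right under TXX-1-10 at 1.41, and PGD lay at 0.01 under TXX-1-10 and 0.41 under rimonabant.

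Further known NRF2 targets in detoxification, heme and iron handling rose more often than they fell. Of 24 such genes 16 could be tested, and 11 rose, 3 fell and 2 did not pass under TXX-1-10 (median 0.59), with 7 rising at least 2-fold. Under rimonabant 10 rose, 3 fell and 3 did not pass (median 0.34), with 2 rising at least 2-fold. Without both length-trend libraries 4 fell under rimonabant, a setting whose shares over all genes are not given here. Over all genes across 9 and 8 libraries, 30.5% and 34.7% passed as higher under TXX-1-10, and 43.8% and 40.6% as lower. The shares higher by at least 2-fold were 4.2% and 5.28%. For rimonabant these shares were 23.7% higher in both fits, 25.2% and 22.8% lower, and 0.519% and 0.736% higher by at least 2-fold. HMOX1, heme oxygenase 1, was at 4.15 ± 0.796 FPKM (SD, n = 3) under vehicle, 7.77 ± 0.0531 (n = 2) under rimonabant and 38.4 ± 4.74 (n = 3) under TXX-1-10, and rose by 3.21 and 0.91 on the log2 scale under TXX-1-10 and rimonabant. OSGIN1, an oxidative stress-induced growth inhibitor, rose by 2.53 and 1.36, and the ferritin heavy chain gene FTH1 by 1.95 and 0.92, in the same order. The members of these lists that passed kept their direction under TMM and DESeq2 scaling and with an offset for gene length. The sign of the glutathione median did not hold, since it was 0.03 with TMM.

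**Figure D3:**
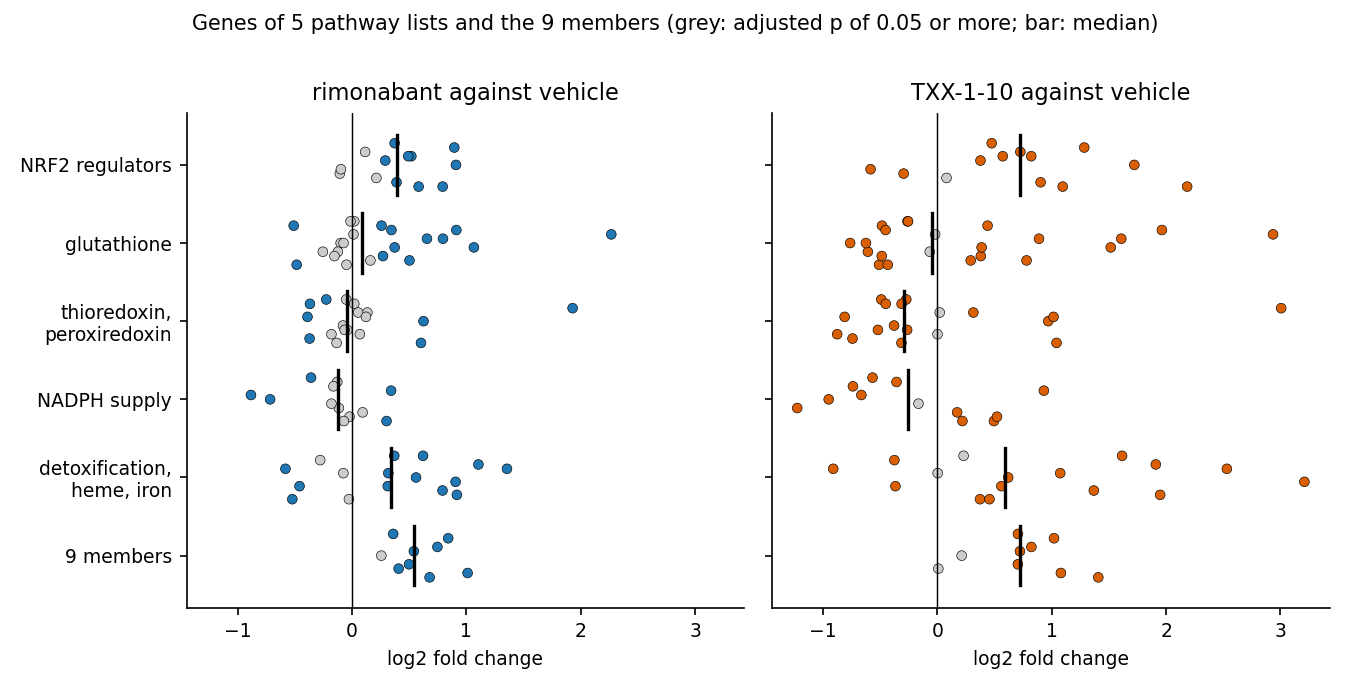
Log2 fold change against vehicle (horizontal axes) of the tested genes of 5 pathway lists and of the 9 followed genes, under rimonabant (left) and TXX-1-10 (right). Each circle is a gene, grey circles did not pass the test, and the black bar is the median of the list. Under TXX-1-10 the medians run from -0.29 for thioredoxin and peroxiredoxin genes to 0.73 for NRF2 regulators, and the 9 followed genes had 0.72.

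When TXX-1-10 was compared directly with rimonabant, NFE2L2, NQO1 and GCLC were higher under TXX-1-10, PGD was lower, and the other 5 genes did not pass. No member differed by 2-fold or more in this comparison, in which 1.58% and 2.1% of all genes across 9 and 8 libraries passed as higher by 2-fold or more. Over all genes, 25.1% across 9 libraries and 26.7% across 8 passed as higher under TXX-1-10, and 39.4% and 33.9% passed as lower. Of the 4 genes that passed, GCLC differed most, by 0.73 ± 0.08 on the log2 scale (edgeR adjusted p = 9.2e-06). The difference of PGD was -0.40 ± 0.06 (adjusted p = 0.000301), and NFE2L2 was higher by 0.34 ± 0.07 (adjusted p = 0.00138). NQO1 differed by 0.18 ± 0.07 (adjusted p = 0.0455), with overlapping values, and the difference was 0.12 without TXX-1-10 replicate 3 (adjusted p = 0.138) and 0.19 without both length-trend libraries (adjusted p = 0.000537).

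For the genes that did not pass, the intervals bound the difference. GCLM differed by 0.08 (edgeR 95% interval -0.05 to 0.20) and TXNRD1 by 0.07 (-0.05 to 0.19) on the log2 scale. SRXN1 differed by 0.18 (-0.09 to 0.45), ME1 by 0.21 (0.01 to 0.40, adjusted p = 0.0627) and TALDO1 by -0.04 (-0.26 to 0.17). These small differences depended on how the libraries were scaled. With TMM the median of all genes moved from -0.08 to 0.01 and the share of higher genes among those that passed from 39.0% to 50.6%. The members that passed then numbered 7, with GCLM (0.16), TXNRD1 (0.15) and ME1 (0.26) added as higher under TXX-1-10.

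**Figure D4:**
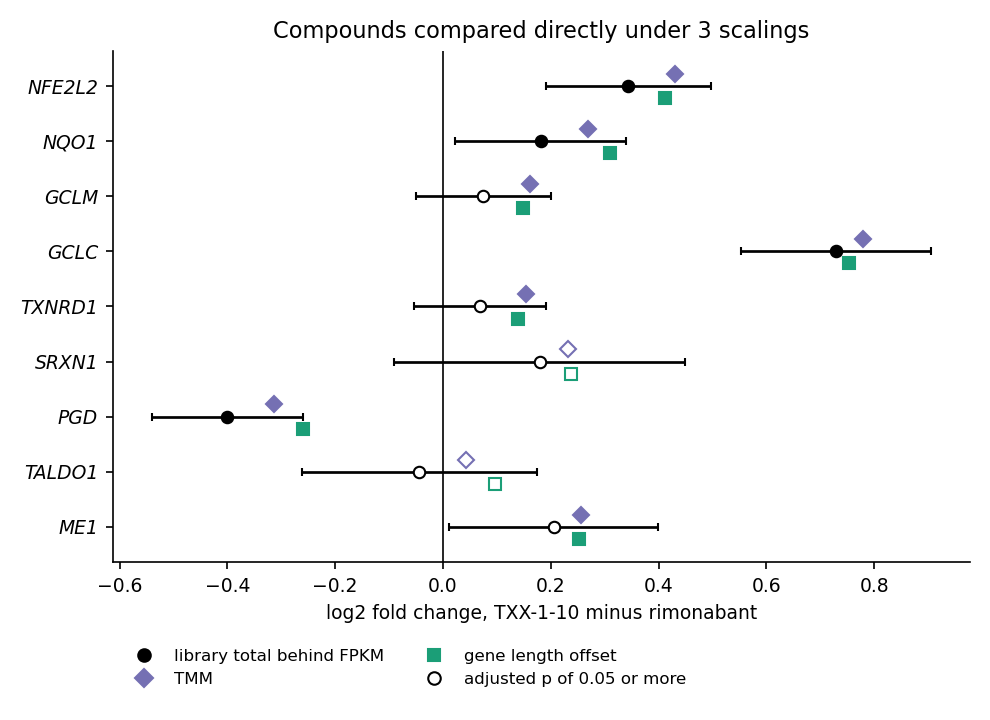
Log2 fold change of TXX-1-10 minus rimonabant (horizontal axis) for the 9 genes. Black circles with 95% intervals use the library totals behind the FPKM values, diamonds use TMM, squares use an offset for the gene length trend, and open symbols did not pass the test. GCLC lay to the right and PGD to the left of 0 under all 3 scalings, whereas GCLM and TXNRD1 passed under TMM and the offset only.

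The order of the levels under vehicle was TXNRD1, TALDO1, PGD, NQO1, NFE2L2, GCLM, ME1, SRXN1 and GCLC, with means from 79.1 to 3.83 FPKM. The vehicle ranges of the neighbours PGD and NQO1 overlapped, as did those of SRXN1 and GCLC, and the other neighbours did not overlap. Under TXX-1-10 the mean of NQO1, 66.8 ± 5.05 FPKM (SD, n = 3), lay above that of PGD, 41.7 ± 3.31 FPKM, without overlap of the libraries. GCLC, at 10.2 ± 0.469 FPKM, no longer had the lowest mean, and its libraries overlapped those of SRXN1 (9.11 ± 1.19 FPKM) and ME1 (10.8 ± 1.13 FPKM).

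Over the 9 libraries, the 5 genes whose log2(FPKM + 1) followed NFE2L2 most closely among 4235 others were PRNP, IER3, LGALS3, SOD2 and RNF14, with Pearson's r between 0.990 and 0.994. NQO1 had an r of 0.957 and ranked 244, GCLM 0.888, TXNRD1 0.865, TALDO1 0.661 and PGD 0.085. These coefficients describe 9 libraries that share 3 treatments and their depth, so a gene that rose in steps from vehicle to rimonabant to TXX-1-10 scores high. GCLC, SRXN1 and ME1 were not ranked because rimonabant replicate 1 does not list them.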

How the data were processed

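RNA-seq of MDA-MB-231 cells was analysed from 9 deposited gene lists, 3 per treatment. Per the study's methods, RNA was oligo(dT) selected and libraries were made with an NEBNext Ultra kit. The submitters' processing notes name HISAT2 2.0.5 and featureCounts 1.5.0-p3. The authors deposited whole-number read counts per gene without normalization, and the authors deposited FPKM values beside them, that is, counts per gene length and library size. The total used for that, recovered from both columns, served as library size. Which reads make it up is not stated. In vehicle replicates 1 and 3 the listed counts summed to more than it, 17492638 against 17078370 and 17383157 against 17221591. In TXX-1-10 replicate 2, with 24304 genes listed, they summed to less, 16836181 against 18394759. Coordinates are those of GENCODE 29 (GRCh38), which match all 27615 genes. The counting is not stated to use strand, so reads of antisense or overlapping genes cannot be told apart.

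Several lists end early. The 4236 genes that all 9 lists hold and whose FPKM averages 1 or more were fitted together with edgeR 4.0.16 in R 4.3.3 (glmQLFit, glmQLFTest). GCLC, SRXN1 and ME1 were taken from a fit of 8 libraries without rimonabant replicate 1 (9369 genes). Thresholds, adjusted p under 0.05 and a log2 fold change of 1, are those of a figure legend of the study, which asks for both together. Here a gene passed, and was said to rise or fall, on the adjusted p alone. Only a change of at least 2-fold asked for both. The code was tested on simulated data. Replicate libraries differed by more than sampling noise. TMM, DESeq2 1.42.0, limma 3.58.1 on log2(FPKM + 1) or log2(FPKM + 0.1), other filters, a gene length offset, a replicate block and left-out libraries were tried.

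The 9 genes, the 5 pathway lists (96 genes) and the tests were chosen with earlier results of these data known. Of each list, the 3 genes with the largest change under TXX-1-10 and the 1 with the largest under rimonabant are named, with KEAP1 and the 5 genes most like NFE2L2, and any other gene is said to have been named after its values were seen. Promoter windows come from RefSeq and matched all 9 genes.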

Additional observations from a re-analysis of the deposited data

How the results depend on the processing

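Of 567 values of the 9 genes under 21 alternatives, 525 kept their side of the threshold, 34 gained a call and 8 lost one. The sign changed in 9 values, all of genes that did not pass (2 of PGD in TXX-1-10 against vehicle and 7 of TALDO1 between the compounds). All 8 lost calls were NQO1 in TXX-1-10 against rimonabant, among them the fit with the replicate number as a block (0.18, edgeR adjusted p = 0.0533, over all alternatives 1.56e-05 to 0.149). With TMM, DESeq2, the gene length offset, or that offset with the replicate block, 7 genes rather than 4 passed between the compounds. The number changed at least 2-fold by rimonabant ranged from 0 to 1 when replicates were left out, being 0 without vehicle replicate 3 or rimonabant replicate 2 (TXNRD1 at 0.98). For TXX-1-10 it was 2 rather than 3 without vehicle replicate 2, vehicle replicate 3 or TXX-1-10 replicate 2. It was also 2 with limma on log2(FPKM + 1). TALDO1 gained a call in 9 of 21 alternatives under each compound. The fit of 8 libraries tested more genes, and 7051, 4360 and 5673 passed for TXX-1-10 and rimonabant against vehicle and for the compounds against each other, rather than 3151, 2071 and 2732. Set against vehicle, same-numbered libraries hardly deviated together, with correlations of -0.093 to 0.030 for TXX-1-10 and -0.056 to 0.044 for rimonabant. When the compounds were set against each other, the correlations were -0.789, 0.800 and -0.590 for replicates 1, 2 and 3. The length trend had opposite signs under the compounds in replicates 1 and 3, and the same sign in replicate 2. The correlations of the compounds follow these signs and cannot decide whether the number is a pairing. The block left the count of the 9 genes that passed at 7, 8 and 4, with ME1 in place of NQO1 between the compounds. TMM moved the median of all genes under TXX-1-10 against vehicle from -0.09 to 0.00. Depth limits SRXN1 most, with 186 reads at the lowest, and 3 genes have only 2 rimonabant libraries.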

Other observations

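Genes of the lists whose enzymes have a cytosolic and a mitochondrial form were set side by side under TXX-1-10, a grouping made after the values were seen and not tested as one. In NADPH supply, mitochondrial IDH2, ME3, ME2 and NADK2 fell by 1.23, 0.66, 0.57 and 0.36 on the log2 scale, and cytosolic IDH1, ME1 and NADK rose by 0.93, 0.70 and 0.17. In the thioredoxin system, mitochondrial TXN2 and TXNRD2 fell by 0.52 and 0.45, cytosolic TXNRD1 rose by 1.08, and the change of cytosolic TXN was 0.02 and did not pass edgeR's test. The peroxiredoxins did not divide this way, since mitochondrial PRDX3 and the mainly cytosolic PRDX1, PRDX2 and PRDX6 all fell, by 0.88, 0.27, 0.81 and 0.74, and PRDX5, found in several compartments, rose by 0.97. For superoxide dismutase the order was opposite, with mitochondrial SOD2 higher by 1.04 and SOD1 fallen by 0.38, and both glutaredoxin genes, GLRX and GLRX2, rose, by 1.61 and 0.38. Under rimonabant ME3, ME2 and TXNRD2 fell by 0.88, 0.36 and 0.37, and IDH2 (-0.11), NADK2 (-0.13), PRDX3 (-0.18) and TXN2 (-0.06) did not pass. Counts of mitochondrially encoded genes, as a share of the total behind the FPKM values, lay between 3.06% and 3.51% under TXX-1-10. In the other libraries this share lay between 6.06% and 6.86%. It moved with the TXX-1-10 values, and its part in them was not tested.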
